A study of Homo sapiens with 6 samples.

Results

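The count table of A-375 cells held 636 rows named LINC followed by digits, the standing name for long intergenic noncoding RNAs that have no name for a function. Of these, 271 had a total of at least 120 reads over the 6 libraries and are described here, out of 21631 gene symbols in the table. They were chosen by their name and this total, which is the only measured value the rule used. The choice was made with earlier results of these data known. All 271 passed the expression filter and were tested, and RefSeq types 269 of them as long noncoding RNA genes. LINC02798 is typed as protein coding and LINC01529 as a transcribed pseudogene, and both keep the name under which they were counted. Just outside the limit stood LINC02387 with 111 reads, LINC02104 with 113 and LINC01778 with 118, and just inside it LINC01843, LINC02326 and LINC01176 with 123 each. A gene read in 1 group only can enter or miss by that group alone: LINC02387 had 2, 0 and 0 reads in control and 17, 37 and 55 in the others.

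A-375 is an established human melanoma cell line. Total RNA was sequenced from 3 libraries carrying a control guide RNA (sgCTRL) and 3 carrying a guide RNA against SEPHS2 (sgSEPHS2), the gene of selenophosphate synthetase 2, which makes the selenium donor for selenoproteins. The study's question was how gene expression differs between control and SEPHS2 knockout cells, and the labels do not say whether a library came from 1 clone or a pool, or whether the replicates were separate cultures. The spread that the p-values are based on is therefore that of these samples alone and may be technical. Counted reads ranged from 34606145 to 43405579 per library.

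SEPHS2 itself was at 156 ± 3.32 CPM (counts scaled to a common library size; mean ± SD, n = 3) in the control libraries and 173 ± 3.85 in those labelled knockout, a log2 fold change of 0.15 (edgeR adjusted p = 0.00401). The transcript level thus does not check the labels, and the second group is called the libraries labelled knockout throughout. Of 11 listed markers of melanocytes and of melanoma cell states, SOX10 carried most reads. TYR, DCT and TYRP1, which mark pigment synthesis, were too low to test. The summed level of the 11, AXL and NGFR included, was 923 to 955 CPM in the control libraries and 922 to 951 in those labelled knockout. Within that sum SOX10 (-0.12), PRAME (-0.12) and MITF (-0.35) fell and AXL (0.42) and NGFR (1.97) rose, as log2 fold changes. NGFR, a neural crest receptor, went from 6.12 ± 0.342 to 24.1 ± 3.61 CPM (adjusted p = 6.88e-13). Leukocyte markers summed to at most 0.301 CPM and endothelial markers to at most 9.52 CPM in any library. Keratinocyte markers summed to 0.902 to 1.83 CPM in control and 2.0 to 2.55 CPM in the libraries labelled knockout. By mean CPM, EPCAM led in control (0.603) and KRT14 in the libraries labelled knockout (1.42, beside 0.317 in control). Fibroblast markers summed to 19.7 to 23.3 and 20.5 to 24.1 CPM, and among them LUM rose (0.76) and COL1A1 fell (-0.61), as log2 fold changes. The part of these cell types in the results was not tested.

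Long intergenic noncoding RNAs are transcribed by RNA polymerase II, capped, and mostly spliced and polyadenylated, but are not known to be translated into stable proteins. They are generally less abundant and more restricted to particular cell types than messenger RNAs, and many are removed in the nucleus by the RNA exosome. Some act at their own locus, where transcription or the RNA itself can affect a neighbouring gene, others act elsewhere in the cell, and for most no function is known. A CpG-rich promoter is typical of genes expressed in many tissues, and a CpG-poor promoter of genes with restricted expression.

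Promoters of 5 members, from 250 bases before to 50 bases after the annotated start, show the range of sequence these RNAs are transcribed from (RefSeq, GRCh38.p14, all on the plus strand). The first 3 have every CG in capitals. LINC00667, which rose and is broadly expressed, lies at chr18:5237850-5238149 with 38 CpG. LINC01537, the largest rise, lies at chr11:72570406-72570705 with 1 CpG, and LINC02015, a large fall, at chr3:177816615-177816914 with 2.
LINC00667: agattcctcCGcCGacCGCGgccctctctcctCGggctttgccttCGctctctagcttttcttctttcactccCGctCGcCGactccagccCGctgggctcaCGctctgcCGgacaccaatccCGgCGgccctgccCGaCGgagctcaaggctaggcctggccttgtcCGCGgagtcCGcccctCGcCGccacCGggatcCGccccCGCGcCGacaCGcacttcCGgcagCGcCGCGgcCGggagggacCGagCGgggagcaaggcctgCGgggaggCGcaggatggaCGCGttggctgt
LINC01537: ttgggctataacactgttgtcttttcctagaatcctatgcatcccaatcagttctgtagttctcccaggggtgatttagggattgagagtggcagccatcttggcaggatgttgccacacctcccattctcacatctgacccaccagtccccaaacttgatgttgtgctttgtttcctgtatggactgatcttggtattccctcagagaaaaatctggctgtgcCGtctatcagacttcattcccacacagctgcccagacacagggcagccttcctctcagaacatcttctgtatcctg
LINC02015: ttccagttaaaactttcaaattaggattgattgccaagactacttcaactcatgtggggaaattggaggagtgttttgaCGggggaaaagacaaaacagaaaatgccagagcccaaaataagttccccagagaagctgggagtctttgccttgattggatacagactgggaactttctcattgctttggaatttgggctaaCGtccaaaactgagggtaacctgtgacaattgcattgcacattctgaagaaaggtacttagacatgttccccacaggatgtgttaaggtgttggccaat
The other 2 carry a motif in capitals. LINC02343, at chr13:34347793-34348092, fell and has TGAATCA, a match to the searched AP-1 pattern TGANTCA, in which N is any base. LINC02915, at chr15:39250419-39250718, rose and has the antioxidant response core TGACACAGC. AP-1 is a stress- and growth-responsive transcription factor, and the antioxidant response element is bound by NRF2.
LINC02343: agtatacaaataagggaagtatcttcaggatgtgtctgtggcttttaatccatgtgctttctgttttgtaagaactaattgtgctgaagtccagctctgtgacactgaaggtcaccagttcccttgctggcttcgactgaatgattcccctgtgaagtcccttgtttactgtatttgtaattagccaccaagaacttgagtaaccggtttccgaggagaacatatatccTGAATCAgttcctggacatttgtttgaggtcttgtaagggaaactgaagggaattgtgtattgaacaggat
LINC02915: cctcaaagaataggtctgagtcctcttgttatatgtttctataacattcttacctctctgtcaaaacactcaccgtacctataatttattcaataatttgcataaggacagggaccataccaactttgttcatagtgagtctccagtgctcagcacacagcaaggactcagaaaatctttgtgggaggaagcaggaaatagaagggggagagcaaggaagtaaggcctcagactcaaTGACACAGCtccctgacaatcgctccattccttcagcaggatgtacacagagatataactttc

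The LINC RNAs moved in both directions, a few by several fold. At an adjusted p under 0.05 (edgeR, adjusted over all 16910 genes tested), 99 of 271 (36.5%) changed, against 45.4% of all tested genes. Of these, 47 (17.3%) were higher in the libraries labelled knockout, beside 22.0% of all genes, and 52 (19.2%) were lower, beside 23.4%. In bulk RNA such a difference can come from fewer cells holding an RNA or from less of it per cell, and the 2 cannot be told apart. Their median log2 fold change of 0.01 was that of all tested genes, but the middle of their distribution was wider, from -0.32 to 0.29 against -0.22 to 0.19. At least 2-fold rises numbered 11 (4.06%, beside 1.25% of all genes) and at least 2-fold falls 13 (4.8%, beside 5.67%). These comparisons are not matched for level, and members had a median of 2.28 CPM, beside 17.9 for all tested genes. The 3 values of one group lay wholly above or below those of the other for 119 members, 57 above and 62 below in the libraries labelled knockout (43.9%, beside 52.1% of all genes).

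**Figure D1:**
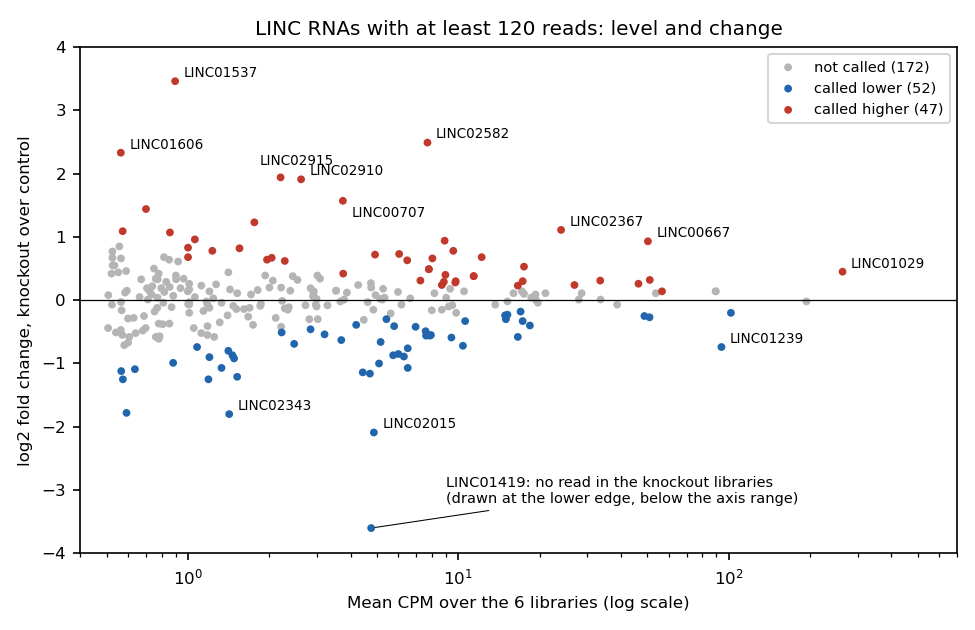
Log2 fold change of each of the 271 LINC RNAs (y axis, libraries labelled knockout over control) against its mean CPM over the 6 libraries (x axis, log scale), coloured by call. The 47 called higher and 52 called lower lie on both sides of 0, and LINC01419, with no read in the libraries labelled knockout, is drawn at the lower edge.

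Changes were called more often among LINC RNAs with more reads. Members had a median of 2.28 CPM, from 0.506 to 264, while all tested genes had a median of 17.9. Below 1 CPM, 13.7% of 73 members were called, beside 23.3% of all tested genes at that level. Those genes, of which 127 were higher and 542 lower, did not have to reach 120 reads. From 1 to 5 CPM the shares were 30.8% of 107 members and 34.4%, and at 20 CPM or more 57.1% of 21 members and 56.9%. From 5 to 20 CPM they were 62.9% of 70 members (20 higher and 24 lower) and 45.4%. In the fits that left out 1 library, 38 to 41 members of this level were called, beside 44 in the main fit. For comparison, 48.9% of protein-coding genes were called, and 27.5% of the other long noncoding RNA genes with at least 120 reads.

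Few LINC RNAs were abundant. All members together took 0.223% to 0.235% of counted reads in control and 0.227% to 0.243% in those labelled knockout, and these ranges overlap. LINC01029 and LINC01203 alone took at most 18.5% of the members' reads in any control library and at least 20.6% in any library labelled knockout. Per kb of exon (lengths from GENCODE v29, known for 261 members), LINC01029 (chromosome 18) led at 126 CPM per kb over the 6 libraries, followed by LINC01203 (chromosome X) at 93.4, LINC02434 at 75.4, LINC01239 at 36.6, LINC02107 at 24.7 and LINC01819 at 20.5. LINC02107 shares its counts with LINC02119, so its own level is uncertain.

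The most abundant members did not move alike. LINC01029 had 9457, 8799 and 9225 reads in control and 10519, 13298 and 11998 in those labelled knockout. All 3 of the latter were higher, at 304 ± 7.15 against 223 ± 9.1 CPM, a log2 fold change of 0.45 (adjusted p = 1.93e-08). LINC01203 stood at 195 ± 7.62 and 192 ± 10.9 CPM, with overlapping groups (adjusted p = 0.781). LINC01239, on chromosome 9, had 4718, 4755 and 5041 reads in control and 2201, 2903 and 3211 in those labelled knockout. Every control library was above every library labelled knockout, and the level fell from 118 ± 7.52 to 70.4 ± 7.82 CPM (log2 fold change -0.74, adjusted p = 3.25e-09). LINC02434 fell from 55.8 ± 2.21 to 46.3 ± 4.23 CPM (adjusted p = 7.38e-04), and LINC01819 rose by 0.14 on the log2 scale, which no longer passed once control replicate 1 was left out (adjusted p = 0.078).

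The largest rise was that of LINC01537 (chr11:72570656-72573222), which had 2, 6 and 10 reads in control and 59, 70 and 64 in those labelled knockout. The groups were far apart, and the level went from 0.148 ± 0.102 to 1.64 ± 0.0762 CPM, which is 3.46 ± 0.39 (SE) on the log2 scale (adjusted p = 3.33e-07). LINC02582, on chromosome 18, had 102, 87 and 96 reads in control and 552, 532 and 434 in the libraries labelled knockout. All 3 of these were above every control library, and the log2 fold change was 2.49 ± 0.14 (adjusted p = 8.87e-12). LINC02915 had 38, 47 and 27 reads against 123, 157 and 132, a log2 fold change of 1.94 ± 0.20 (adjusted p = 6.13e-08). LINC02910, on chromosome 20, had 43, 53 and 40 against 145, 177 and 165, a log2 fold change of 1.91 ± 0.17 (adjusted p = 9.28e-09). In both, the lowest library labelled knockout was above the highest control library.

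LINC00707, reported as growth-promoting in several tumours, had 92, 73 and 67 reads in control and 204, 212 and 239 in the libraries labelled knockout. The groups did not overlap, and its log2 fold change was 1.57 ± 0.15 (adjusted p = 3.05e-08). LINC02367 had the most reads of the 10 largest rises, with 692, 589 and 594 in control and 1096, 1463 and 1303 in the libraries labelled knockout. Its level went from 15.2 ± 1.11 to 32.7 ± 1.06 CPM, a log2 fold change of 1.11 (adjusted p = 9.13e-12). The other rises among the 10 were LINC01606 (2.33), LINC03002 (1.44), LINC01291 (1.23) and LINC00589 (1.09), all log2 fold changes. LINC01606 had 9, 10 and 4 reads in control and 26, 36 and 50 in the libraries labelled knockout. The call of LINC00589 was lost in 4 of the 6 fits that left out 1 library, with a largest adjusted p of 0.0818, namely without control replicate 1 or 2 or knockout replicate 1 or 3.

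**Figure D2:**
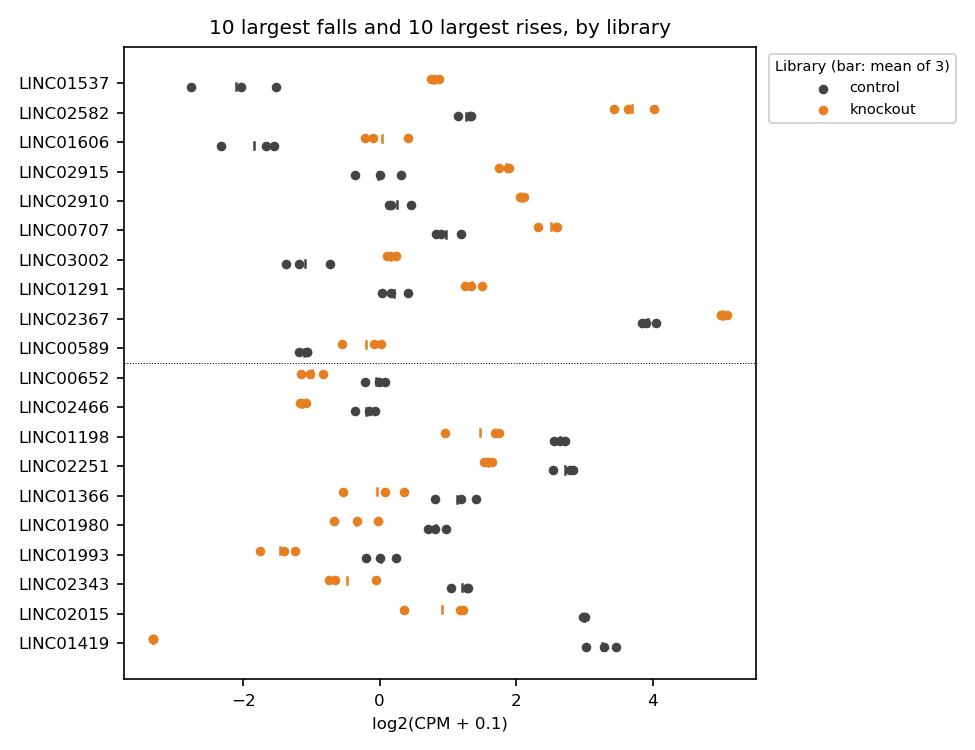
Level of the 10 largest rises (upper rows) and 10 largest falls (lower rows) in each of the 6 libraries, as log2(CPM + 0.1); points are libraries and bars the mean of 3. In all 20 the control and knockout-labelled points do not overlap, which the choice of these 20 required, and LINC01419 is at 0 reads in the 3 libraries labelled knockout.

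One LINC RNA went from a moderate level to no reads. LINC01419 (chr8:83403758-83408900), reported in liver and other tumours, had 339, 449 and 386 reads in control and 0, 0 and 0 in those labelled knockout. It was at 9.53 ± 1.42 CPM in control and at least 374-fold lower in the other group, counting 3 reads over that group as the limit that a count of 0 allows (adjusted p = 3.60e-14). Its nearest protein-coding gene, RALYL, lies 774 kb away and was too low to test.

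LINC02015 (chr3:177816865-177899224) had 334, 323 and 315 reads in control and 74, 96 and 48 in the libraries labelled knockout. Every control library was far above, and the log2 fold change was -2.09 ± 0.16 (adjusted p = 1.46e-09). LINC02343, on chromosome 13, had 99, 81 and 93 reads against 17, 23 and 35, a log2 fold change of -1.80 ± 0.24 (adjusted p = 3.67e-06). LINC02251, on chromosome 15, had 241, 290 and 271 against 95, 130 and 118, a log2 fold change of -1.16 ± 0.13 (adjusted p = 2.51e-07). Neither showed any overlap between the groups. The other large falls were LINC01993 (-1.78), LINC01980 (-1.25), LINC01366 (-1.21), LINC01198 (-1.14), LINC02466 (-1.12) and LINC00652 (-1.09), all log2 fold changes. LINC02466 was no longer called without control replicate 1 (adjusted p = 0.0588).

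LINC RNAs on chromosome 13 were mostly lower, as were the other genes there. Of 14 members, 8 were called lower, and 13 of 14 had a negative log2 fold change. The number called higher was 0 by edgeR, DESeq2 and limma-voom alike, also at an unadjusted p under 0.05. Their median log2 fold change was -0.53, beside -0.40 for all 323 tested genes of the chromosome, of which 65.6% were called lower and 2.17% higher.

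Besides LINC02343 and LINC01198, LINC00540 fell from 12.9 ± 0.382 to 7.82 ± 0.312 CPM and LINC00327 from 8.19 ± 0.377 to 4.40 ± 0.244 CPM. The remaining calls on chromosome 13 were LINC00552 (-0.80), LINC00383 (-0.55), LINC00355 (-0.33) and LINC00460 (-0.30), as log2 fold changes. LINC00460, reported in several tumours, had 232, 242 and 264 reads in control and 165, 203 and 203 in the libraries labelled knockout. Its call was lost in 5 of the 6 fits without 1 library, all but that without control replicate 1 (largest adjusted p 0.184), and that of LINC00552 without knockout replicate 2 (adjusted p = 0.0803). The 8 genes spread from base 22210285 to base 113751089. Without chromosome 13, 47 members were higher and 44 lower, of 257.

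On chromosome 18 the direction was the opposite. Of 10 members, 4 were called higher, and the median of the 10 was 0.34 on the log2 scale, beside 0.17 and 43.5% higher among all 230 tested genes of the chromosome. The number called lower was 0 by edgeR, DESeq2 and limma-voom, also at an unadjusted p under 0.05. LINC00667 had 1457, 1411 and 1409 reads in control and 2134, 2919 and 2727 in the libraries labelled knockout. All 3 of these were higher, at 65.8 ± 2.91 against 34.7 ± 0.57 CPM, a log2 fold change of 0.93 (adjusted p = 3.08e-12).

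LINC00667 is the only member in the first 15 Mb of chromosome 18, a border set after the values were seen. There 49 of 58 tested genes were higher and 3 lower, at a median of 0.94 on the log2 scale. In the rest of the chromosome 51 of 172 were higher and 38 lower, with a median of 0.03. LINC01029, LINC02582 and LINC02864 (0.24) lie in that rest, from base 73154058 onward.

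**Figure D3:**
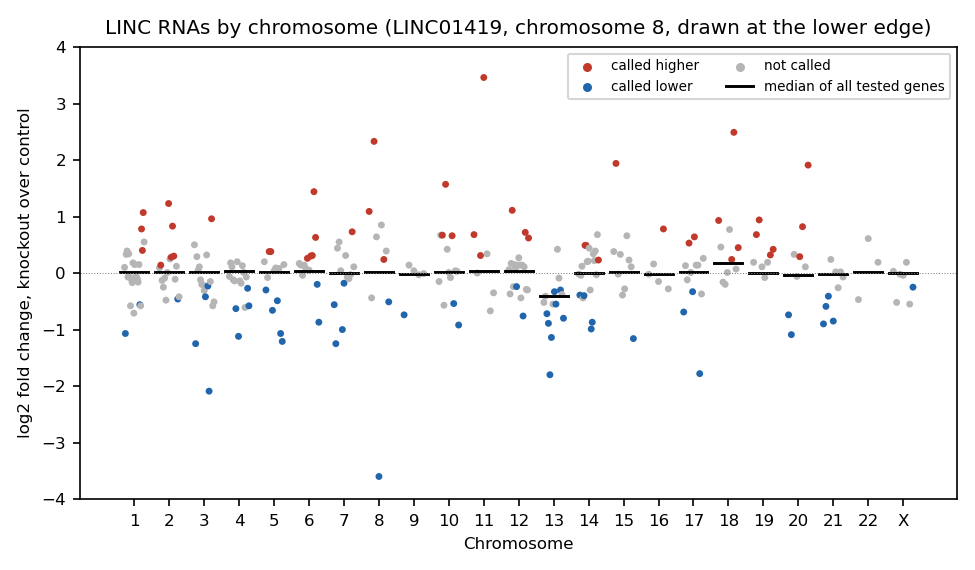
Log2 fold change of each LINC RNA (points, coloured by call) by chromosome, with a bar for the median of all tested genes of that chromosome. The chromosome 13 points lie mostly below 0 around a bar at -0.40, and on chromosome 18 the bar is at 0.17 with 4 points called higher.

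LINC RNAs close to a protein-coding gene tended to move with it. The nearest such gene was less than 50 kb away, without overlap, for 131 members, and had been tested for 105. In 21 of these pairs both genes were called, and in 19 of the 21 they moved the same way. Across the 105 pairs the log2 fold changes had a Pearson r of 0.57 and a Spearman rho of 0.45. Without LINC01537 these were 0.47 and 0.44. The pairs share the 6 libraries, and each pair its genome region, so r is given as a description.

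For the 92 pairs that lie farther apart, r was 0.06 and rho 0.09. In 24 of them both genes were called, and in 15 of the 24 they moved the same way. Some of these members share 1 neighbour, such as LINC01270 and LINC01271, so the pairs are not independent. LINC02119 and LINC02107, whose counts are identical, both stand among the far pairs that moved in opposite directions. The difference between near and far pairs was not tested. In the fits that left out 1 library, 16 to 18 of 17 to 20 near pairs agreed in direction, and 8 to 15 of 15 to 24 far pairs.

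The near pairs held on both strands. On the same strand 10 of 11 doubly called pairs went the same way (r = 0.43 over 62 pairs), and on opposite strands 9 of 10 (r = 0.71 over 43 pairs). Leaving out chromosomes 13 and 18 gave 18 of 20. The counting's strand setting is not given in the sources used here, so a read cannot be assigned to a strand. For the 11 members that overlap a gene on the opposite strand, r was 0.12 over 8 tested pairs, and none of those 8 members was called.

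The pairs named next that lie outside the naming rule were chosen after their values were seen. LINC01537 lies 2.92 kb from PDE2A, a phosphodiesterase of cyclic AMP and cyclic GMP, on the opposite strand. PDE2A rose from 2.2 ± 0.0978 to 5.16 ± 0.48 CPM (log2 fold change 1.23, adjusted p = 3.99e-07). LINC01291 lies 15.1 kb from POLE4, a subunit of DNA polymerase epsilon, which rose by 0.62 on the log2 scale. LINC02043 (0.96) and RFC4 (0.68), a subunit of the clamp loader of DNA replication, both rose and lie 4.4 kb apart. LINC03060 (0.73) and AKR1B1 (0.40), aldose reductase, also rose together.

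Among pairs that fell, LINC00189 went from 7.71 ± 0.355 to 4.28 ± 0.721 CPM and BACH1, a heme-regulated transcriptional repressor, from 104 ± 2.14 to 63.3 ± 2.86 CPM. LINC02251 fell beside ARRDC4 (-0.68), an arrestin-domain protein, and LINC00601 (-0.92) beside C10orf90 (-0.76). LINC00324 (-0.69) fell beside CTC1 (-0.43), a telomere maintenance factor. The 2 pairs in opposite directions were LINC00467 (0.40) with TRAF5 (-0.20) and LINC00174 (-0.18) with TPST1 (0.28).

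In a divergent pair, 2 genes on opposite strands start close together and are transcribed away from each other. Pairs were counted as divergent by opposite strands, no overlap and starts within 5 kb. That they point away from each other was not checked. There were 10 such members, 8 with a tested neighbour. Both genes were called in 2: LINC02587 (-0.56) with the homeobox gene MEOX2 (-0.28), and LINC02593 (-1.07) with SAMD11 (-0.58). Each pair fell together.

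Farther apart, shared directions were no rule. LINC01615 (-0.87) fell with THBS2 (-1.03), an extracellular matrix glycoprotein 52.8 kb away, and LINC01265 (-0.66) with LIFR (-0.89), a cytokine receptor. LINC01152 rose (0.64) while SOX9 (-0.74), a neural crest and cartilage transcription factor, fell. LINC01270 (0.29) and LINC01271 (0.82) rose while CEBPB (-0.38), a transcription factor of inflammation and differentiation, fell. The groups of LINC01270 overlapped, and its call was lost without control replicate 2, knockout replicate 2 or knockout replicate 3 (largest adjusted p 0.18). That of LINC01271 was lost without knockout replicate 2 (adjusted p = 0.055).

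**Figure D4:**
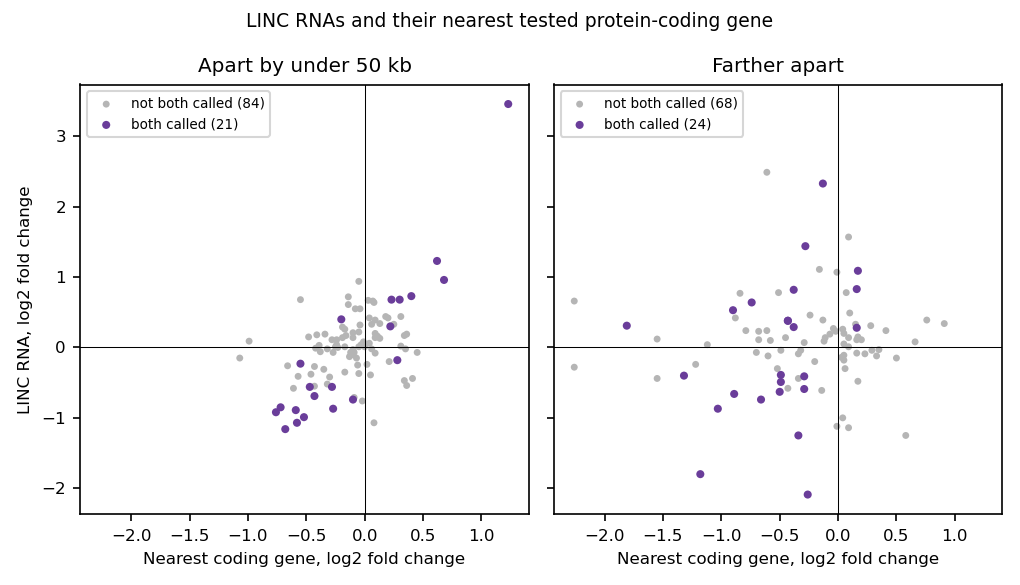
Log2 fold change of a LINC RNA (y axis) against that of its nearest tested protein-coding gene (x axis), for 105 pairs apart by under 50 kb (left) and 92 pairs farther apart (right); dark points are pairs in which both genes were called. On the left 19 of 21 dark points lie in the quadrants of shared direction, on the right 15 of 24.

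Some LINC RNAs also lie beside each other. Of 14 pairs of members less than 100 kb apart, both were called in 5, and all 5 moved the same way. LINC01687 (11.8, 9.74 and 12.5 CPM in control, 6.5, 7.92 and 8.14 in the libraries labelled knockout) and LINC00308 start 0.158 kb apart on chromosome 21, and both fell, by 0.59 and 0.41 on the log2 scale. LINC01116 (0.28) and LINC01117 (0.83), in the HOXD region of chromosome 2, both rose and lie 0.145 kb apart. The others were LINC02288 (-0.99) with LINC02289 (-0.87), LINC02864 with LINC02582, and LINC01270 with LINC01271. Members of the first and last of these overlap on opposite strands, so their reads cannot be told apart. Leaving out 1 library lost the call of LINC00308 in 2 of 6 fits (without control replicate 1 or knockout replicate 2), of LINC01117 in the same 2, of LINC01270 in 3 and of LINC01271 in 1, so 3 of the 5 pairs rest on such calls.

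Promoters were matched for 185 members. A promoter was counted as CpG-rich at a GC content of at least 55% and an observed to expected CpG ratio of at least 0.65. Of the 185, 49 (26.5%) were CpG-rich, against 67.8% of all tested genes with a promoter. The LINC00667 promoter printed above is one, with 72.0% GC and a ratio of 0.994, while those of LINC01537 (0.0579) and LINC02015 (0.15) are CpG-poor.

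Of the CpG-rich members 11 (22.4%) were called, and of the 136 CpG-poor members 61 (44.9%). The 2 classes had similar median levels, 2.44 and 2.31 CPM. Among all tested genes the order was the other way, 48.5% of CpG-rich and 43.3% of CpG-poor genes. Those 2 classes differed in level, with medians of 31.1 and 7.95 CPM, so their order is not matched for level. At 5 CPM or more, 8 of 19 CpG-rich members (42.1%) and 33 of 50 CpG-poor members (66.0%) were called, and below 5 CPM 3 of 30 and 28 of 86 (32.6%). The difference between the classes was not tested. In the fits that left out 1 library, 9 to 16 CpG-rich members were called, the 16 without knockout replicate 1, and 50 to 58 CpG-poor members.

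**Figure D5:**
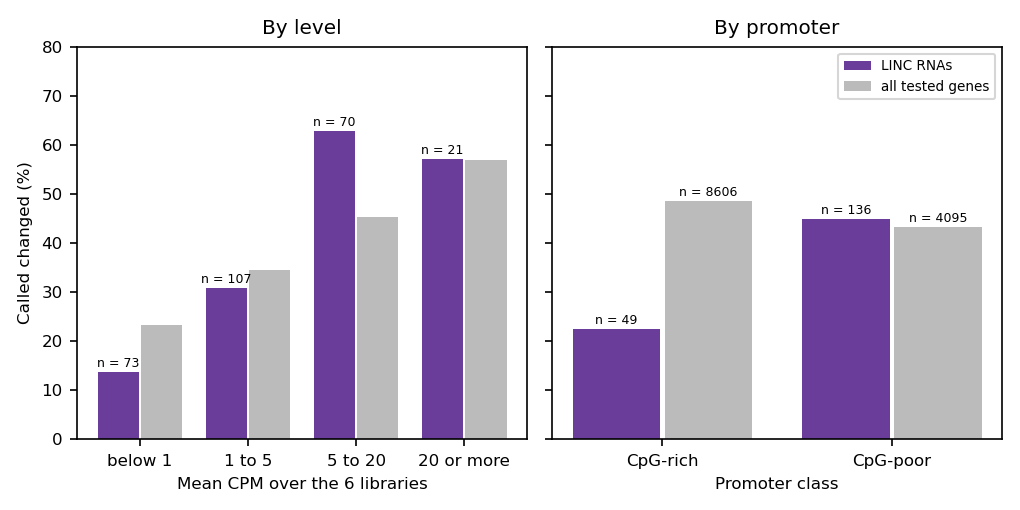
Share of genes called changed (%, y axis) for LINC RNAs (dark bars) and all tested genes (grey bars), by mean CPM (left) and by promoter class (right), with the number of genes above bars. LINC RNAs from 5 to 20 CPM reach 62.9% beside 45.4%, and CpG-rich LINC RNAs 22.4% beside 48.5%. The bars by promoter class are not matched for level: the CpG-rich medians are 2.44 CPM for LINC RNAs and 31.1 for all tested genes.

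Short motifs were searched on both strands of the 300-base promoters, and the share among all 27305 promoters is given beside each. These shares are not matched for base composition. Of the members with a promoter 73.5% are CpG-poor, beside 32.2% of all tested genes with one. AP-1 (TGANTCA) was found in 22 of 185 members (11.9%, against 7.76%). Among them were 7 of 39 that fell, 3 of 33 that rose and 12 of 113 that were not called. The 7 were LINC02343, LINC02466, LINC02288, LINC00601, LINC00460, LINC01363 and LINC01615. The middle base of the AP-1 pattern was left free, so some matches, such as TGAATCA in LINC02343, may not be AP-1 sites. The antioxidant response core (TGACNNNGC) was found in 30 (16.2%, against 13.6%). Among these were 6 of 33 that rose, 5 of 39 that fell and 19 of 113 that were not called. LINC02915, LINC00665 and LINC00472 were among the 6. The TATA box (TATAAA) was found in 23 (12.4%), close to its share in all promoters (3264 of 27305).

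The cyclic AMP response element (TGACGTCA) was found in 3 members (1.98% of all promoters) and the NF-kB motif, with 1 base left free, in 2 (0.579% of all). The E2F motif (TTTCGCGC) was found in 0 of 185 members, against 0.546% of all promoters. AP-1 and the cyclic AMP response element can overlap with the antioxidant response core, which begins with the same letters TGAC. A match says only that these letters stand in the window.

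Members known from tumours moved in both directions. Of 6 LINC RNAs reported in melanoma, 2 were members, and the others were not in the table under their listed symbols. LINC01212, among the latter, is an older symbol of SAMMSON, which was counted under that name. SAMMSON had 146, 121 and 98 reads in control and 47, 85 and 65 in the libraries labelled knockout. Its log2 fold change was -0.83 ± 0.19 (adjusted p = 0.00107). LINC01291 had 39, 42 and 49 reads in control and 83, 117 and 92 in the libraries labelled knockout. The groups did not overlap, and its log2 fold change was 1.23 ± 0.20 (adjusted p = 3.45e-05). LINC00673 stood at 85.4 ± 5.38 and 93.8 ± 11.2 CPM (adjusted p = 0.093), with counts identical to those of LINC00511.

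Of 27 LINC RNAs reported in other tumours, 15 were in the table under their listed symbols and 14 were members. Listed symbols absent from the table were not traced to newer symbols, as was done for LINC01212. Of the 14, 5 rose, 3 fell and 6 did not pass, beside 22.0% higher and 23.4% lower among all tested genes. The median of the 14 was 0.13 on the log2 scale. Beside LINC00707, LINC00665 rose from 45.5 ± 3.25 to 56.7 ± 1.75 CPM and LINC00472, described as a tumour suppressor in breast cancer, from 42.3 ± 3.54 to 50.6 ± 1.73 CPM. LINC00467 (0.40), which can encode a micropeptide, and LINC01116 (0.28) also rose. LINC00473, a target of the cyclic AMP responsive factor CREB, fell (-0.20) with counts identical to those of PDE10A, and LINC02381 (-0.24) and LINC00460 (-0.30) fell. LINC01116 was no longer called without control replicate 3 (adjusted p = 0.0595). The values of LINC00511, LINC00662, LINC01234, LINC00839, LINC01503 and LINC01605 ranged from -0.44 to 0.14 on the log2 scale.

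Broadly expressed LINC RNAs mostly did not pass the test. Of 15 members from a list of 25, LINC00667 rose, LINC00324 and LINC00174 fell, and 12 did not pass. Their median was 0.02, and 45.4% of all tested genes were called. Absent symbols of this list were not traced to newer symbols either. LINC00324 had 143, 114 and 121 reads in control and 53, 98 and 74 in the libraries labelled knockout. All 3 control values were higher, with a log2 fold change of -0.69 (adjusted p = 0.00295). The call of LINC00174 (-0.18, adjusted p = 0.0419) was lost in 5 of the 6 fits that left out 1 library. LINC00339, the next by p, had 129, 108 and 99 reads against 118, 168 and 121 (adjusted p = 0.083), with overlapping groups.

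Long noncoding RNAs with names of their own are given for comparison. Of 58 listed, 48 were tested, of which 11 rose, 14 fell and 23 did not pass, where 45.4% of all tested genes were called. MIR100HG, host of a microRNA cluster, fell from 350 ± 15.4 to 178 ± 12.4 CPM and LUCAT1, a stress-induced RNA, from 70.3 ± 3.67 to 34.9 ± 1.86 CPM. DANCR rose by 0.81 and SNHG1, a host of small nucleolar RNAs, by 0.48 on the log2 scale.

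Of 27 tested genes listed for the RNA exosome and RNA surveillance, 11 rose, 4 fell and 12 did not pass. Among all genes at 20 CPM or more, 56.9% were called. The list is not limited to nuclear RNA decay and also holds DIS3L, UPF1, PAPOLA and NCBP1. Their median was 0.06 on the log2 scale. The exosome cofactor MPHOSPH6 rose by 0.51, and the core subunits EXOSC9 and EXOSC3 by 0.40 and 0.26, on the log2 scale. The catalytic subunit DIS3, on chromosome 13, fell from 181 ± 0.579 to 122 ± 2.77 CPM (log2 fold change -0.57). Whether these levels bear on those of the LINC RNAs was not tested.

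The 6 counts of 18 members equalled those of another symbol, in 14 sets, so they hold 267 distinct profiles. In 4 sets the members equalled each other: LINC01599 with LINC01588, LINC00511 with LINC00673, LINC02119 with LINC02107, and LINC00869 with LINC02591. A further 4 members equalled a protein-coding gene: LINC00473 with PDE10A, LINC01590 with SMIM8, LINC02491 with MMAA, and LINC01402 with RHOXF1. The others were LINC01372 with STAG3L4, LINC02677 with LASTR, LINC00593 with DRAIC and PCAT29, LINC02310 with FRMD6-AS1 and FRMD6-AS2, LINC02802 with LOC107985200, and LINC02422 with LOC105369725. Which gene the reads came from cannot be told. Of the 18, 7 were called: LINC01599 and LINC01588 (0.49), LINC02119 and LINC02107 (0.38), LINC02677 (0.67), LINC01590 (0.30) and LINC00473. That of LINC01590 was lost without control replicate 2 (adjusted p = 0.122) and without knockout replicate 3 (adjusted p = 0.0807).

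The calls differed in how far they rested on single libraries. Of the 99 calls, 71 held in each of the 6 fits that left out 1 library, 32 of them higher and 39 lower. The other 28 were lost at least once.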

How the data were processed

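The deposited table holds unnormalized read counts, 1 row for each gene symbol and 1 column for each of the 6 libraries. The submitters' processing notes list HISAT2 2.2.1 and featureCounts 2.0.6 (Subread), SAMtools 1.21, FastQC 0.12.1 and build GRCh38. Which annotation and strand setting were used, and how multiply mapping reads were treated, is not given in the sources used here.

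Groups came from the sample titles. All symbols were fitted with edgeR 4.0.16 in R 4.3.3 (TMM factors, default expression filter by group, two-sided quasi-likelihood test, no block), and 16910 genes were tested with Benjamini-Hochberg adjustment. Every adjusted p is from this fit unless another is named, and every log2 fold change is libraries labelled knockout over control. CPM used TMM-scaled library sizes. For a group at 0 the fold is a bound that assumes 3 reads over that group. It covers counting error only, because PCR copies cannot be told from separate molecules here. The fit was tested on simulated data.

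Gene types and positions are from RefSeq GRCh38.p14: 265 members matched by symbol and 6 by an older symbol. Exon lengths are from GENCODE v29. Neighbours are the nearest RefSeq protein-coding genes.

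Named members are the 10 largest rises and falls with no shared counts and no overlap of groups, the 6 highest levels per kb, those of the melanoma and tumour lists, up to 6 of the broadly expressed list, those on chromosomes 13 and 18, those with shared counts, those next to the limit of 120 reads and their neighbours, plus up to 4 genes of each list of other genes by smallest adjusted p. The members and lists were chosen with earlier results of these data known. Alternatives were RLE and upper-quartile factors, other filters, DESeq2 1.42.0, limma-voom (limma 3.58.1), a replicate block, an adjusted p under 0.01, other totals for membership, members with shared counts left out and each library left out.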

Additional observations from a re-analysis of the deposited data

How the results depend on the processing

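Under RLE or upper-quartile factors, no filter, a filter of 1 CPM in 3 libraries, DESeq2, limma-voom and an adjusted p under 0.01, the number of members called higher ranged from 35 to 47 and lower from 37 to 52, and the median log2 fold change stayed within 0.01 of the reported value. Leaving out each library in turn gave 40 to 48 higher, 43 to 49 lower, 9 to 12 at least 2-fold higher and 9 to 17 at least 2-fold lower, with a median from -0.01 to 0.04 and 25 to 33 doubly called neighbour pairs of shared direction, of 36 in all arrangements. The counts of large changes moved with the total that makes a member, because other genes are counted. A minimum of 60 reads gave 17 at least 2-fold higher and 21 lower, of 332 members. A minimum of 600 reads gave 4 and 5, of 130 members.

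With replicate number as a block, 46 members were higher and 51 lower. Same-numbered libraries correlated at 0.197, 0.055 and 0.279 after removal of the group means, and control replicate 2 correlated better with knockout replicate 1 (0.169), so the numbers are not taken as pairs. Without members on chromosomes 13 and 18, an alternative chosen after seeing the data, 43 were higher and 44 lower. Without members of shared counts, 41 were higher and 51 lower. Divergent pairs numbered 7 with starts within 1 kb and 16 within 10 kb. Over 1073 settings of the 78 named members, 34 lost a call, 7 gained one and 0 reversed. The 1073 include settings of named members not called in the main fit, which could not lose a call. They therefore do not measure how stable the calls are.

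Members had a median of 2.28 CPM, beside 17.9 for all tested genes, and a p that misses the threshold does not show that a member did not differ.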
